A study of Mus musculus with 5 samples.

Results

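The Hox genes of the clusters Hoxa, Hoxb, Hoxc and Hoxd were examined array by array in cultures of mouse pancreatic cells. Members were all probe sets annotated with exactly 1 gene symbol made of a cluster name and a number, with the highest mean per gene where several existed. This gave 37 genes of the 19938 tested, each with 1 probe set: 10 of cluster A, 9 of cluster B, 9 of cluster C and 9 of cluster D. The probe set of Hoxb8 carried a second symbol, Hoxb7, so Hoxb8 is not a member.

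RNA from 5 cultures was hybridised to Affymetrix whole-transcript arrays, 1 array per culture, and each probe set gave 1 log2 signal. The normal ductal group held 2 cultures of the genotype Pdx-1Cre p53L/L, and the PDAC (pancreatic ductal adenocarcinoma) group held 3 of the genotype Pdx-1CreAPCL/+p53L/L. All 5 thus had a pair of floxed p53 alleles, and the groups differed in their labels by tumour origin together with 1 floxed Apc allele, so that these cannot be told apart. Pdx-1Cre makes Cre recombinase in the Pdx1 lineage, from which the epithelial cells of the pancreas derive and its connective tissue does not. The title of normal ductal replicate 2 leaves out Cre and the word ductal, which its other labels give, and the title of PDAC replicate 3 adds that it is a mutant cell. Cultures had been grown for fewer than 6 passages, by a label that calls all 5 PDAC cells. The titles call the cultures of each group biological replicates. No label names the animals, so whether the cultures came from separate animals is not known, and part of the spread between them may be technical. Ages were not given in the sources used here.

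Hox genes encode homeodomain transcription factors that give cells their place along the body axis. In each cluster they lie in the order in which they are used along the body, low paralogue numbers toward the head and high numbers toward the tail, and cells derived from different sites can keep a lasting combination of active Hox genes. The proteins bind DNA together with the TALE homeodomain partners Pbx and Meis, retinoic acid turns on the anterior genes, and Polycomb complexes keep unused genes silent. In the following, paralogue groups 1 to 3 are called anterior, 4 to 8 central and 9 to 13 posterior.

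Cell type markers differed between the arrays. The mean log2 level of 13 epithelial markers was 10.72 and 10.43 for the normal ductal arrays against 6.30, 7.07 and 8.64 for PDAC 1, 2 and 3. On the PDAC arrays 10, 10 and 12 of the 13 lay above the 95th percentile of 1015 olfactory receptor genes of the same array, which ran from 5.05 to 5.23 and served as background, and on both normal ductal arrays 13 did. Of all genes tested, 68.9%, 70.2% and 70.8% lay above it on PDAC 1, 2 and 3. On normal ductal arrays 1 and 2 these shares were 70.3% and 71.5%. The 15 fibroblast and stellate cell markers averaged 7.08 in normal ductal replicate 1, 9.55 in normal ductal replicate 2 and 8.92, 8.43 and 8.38 in the PDAC cultures. Normal ductal replicate 2 also had the highest mean of 8 acinar markers (7.03 against 5.38 to 5.59 elsewhere), 11 islet markers (7.62 against 5.27 to 6.06) and 10 endothelial markers (6.94 against 5.46 to 5.91). Leukocyte markers, 9 in all, averaged 5.75 in that culture and 4.95 to 5.26 elsewhere. Lyz2 stood at 8.52 there and at 4.08 to 5.67 elsewhere, and Cd68 at 8.65 there and at 7.59 to 7.88 elsewhere. Ptprc, the pan-leukocyte antigen CD45, Adgre1 and Cd79a lay below background on all arrays, and Cd3e was highest in normal ductal replicate 1 (5.80). Mesothelial markers, 7 in all, averaged 8.66 in PDAC replicate 3 and 5.35 to 6.89 elsewhere. Upk3b (10.41), Upk1b (10.77) and Gpm6a (9.32) were highest in PDAC replicate 3, while Msln was at 11.18 there and at 11.25 and 10.90 in the normal cultures, and Lrrn4 (6.98) and Wt1 (7.82) were highest in normal ductal replicate 2. Above background were 12, 15, 12, 13 and 12 of the 15 fibroblast markers and 6, 6, 5, 5 and 7 of the 7 mesothelial markers in normal ductal replicates 1 and 2 and PDAC 1, 2 and 3. These counts stand beside the 68.9% to 71.5% of all genes given above. The acinar factors Ptf1a and Bhlha15 were below background on all arrays. Among acinar enzymes, Ctrb1 stood at 12.26 and Cpa1 at 10.12 in normal ductal replicate 2, against 5.90 to 6.08 and 5.37 to 5.54 elsewhere, while Cela1 was highest in PDAC replicate 2 (7.89). The 4 Schwann and neural crest markers averaged 5.84 to 6.29. In bulk cultures, fewer cells of a type and less RNA per cell cannot be told apart.

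Each PDAC culture had its own combination of Hox genes, and the combinations differed from cluster to cluster. PDAC replicates 1 and 3 had high levels of the central Hoxc genes and of Hoxc9, and PDAC replicate 2 had none of these above the level of the normal ductal cultures by more than 1 log2 unit. Among the PDAC cultures, replicate 2 had the highest Hoxa2, Hoxa3, Hoxa5, Hoxa6 and Hoxb9. Against the normal ductal mean it was higher by more than 1 log2 unit at Hoxb9 alone. Hoxa3 and Hoxa5 were higher still in normal ductal replicate 2. PDAC replicate 1 alone showed high Hoxd8 and Hoxd13. Among the normal ductal cultures, replicate 2 stood above replicate 1 in anterior and central Hoxa and Hoxb genes.

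Of the 37 genes, 16 differed by more than 1 log2 unit, a 2-fold difference, between their highest and lowest array, or 43.2% beside 20.7% of all genes tested. These were 5 genes of cluster A, 4 of B, 5 of C and 2 of D, and by position 3 of the 7 anterior, 10 of the 14 central and 3 of the 16 posterior genes. The median range over the 5 arrays was 0.78 for the members and 0.49 for all genes. At the other end, 15 members spanned less than 0.5, among them Hoxa9, Hoxa10, Hoxa11, Hoxa13, Hoxb13, Hoxc11, Hoxc12, Hoxd1, Hoxd3 and Hoxd10, and Hoxd11 stood at 5.69 on every array. A probe set that does not move may report a silent gene or may respond poorly, and these cases were not separated here.

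**Figure D1:**
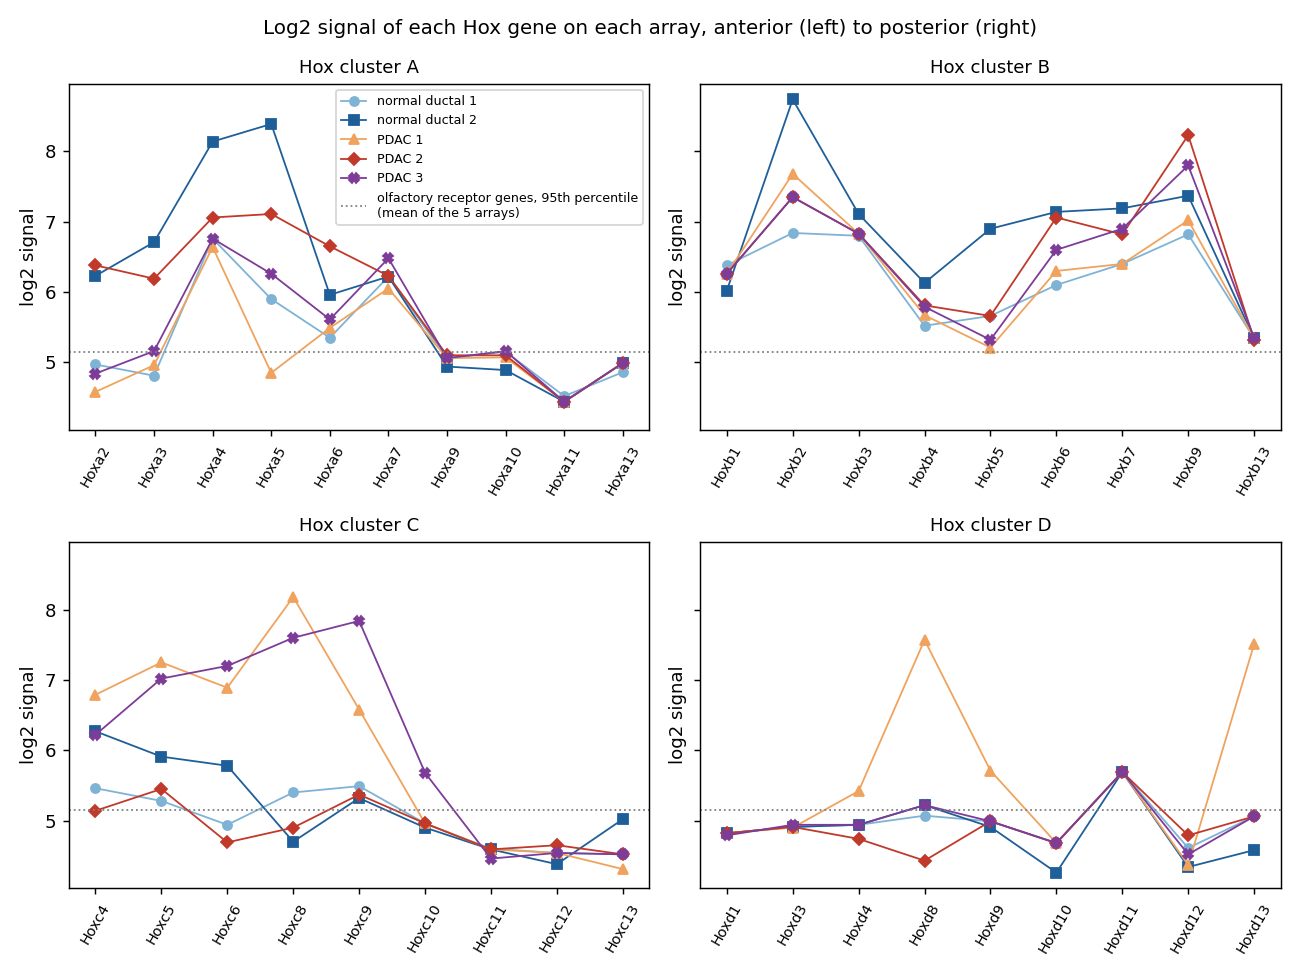
Log2 signal (y axis) of the 37 Hox genes by cluster, ordered on the x axis from low to high paralogue number, with a symbol and line for each of the 5 arrays; the dotted line is the 95th percentile of olfactory receptor genes averaged over the arrays. PDAC 1 and PDAC 3 lie above the other arrays from Hoxc5 to Hoxc9, PDAC 1 alone at Hoxd8 and Hoxd13, and normal ductal 2 and PDAC 2 above the others at Hoxa2, Hoxa3 and Hoxa5.

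Of the 4 cluster means, that of cluster C had the widest range. Its 9 genes averaged 5.02 and 5.21 in the normal cultures against 6.01, 4.92 and 6.12 in PDAC 1, 2 and 3, and its 4 central genes averaged 5.27, 5.66, 7.28, 5.05 and 7.01 in the same order. By both means PDAC replicate 2 was the lowest of the 5 arrays, and PDAC replicates 1 and 3 were the highest.

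Hoxc8, which patterns the thoracic region, stood at 5.40 and 4.70 in normal ductal replicates 1 and 2 and at 8.18, 4.90 and 7.60 in PDAC replicates 1, 2 and 3. Hoxc9, of the thoracic region as well, read 5.49 and 5.32 in the normal cultures against 6.58, 5.37 and 7.84 in PDAC 1, 2 and 3. For both genes PDAC replicates 1 and 3 were high, and PDAC replicate 2 lay within or beside the normal ductal values, so that the groups overlapped. Hoxc6 read 4.94 and 5.78 in the normal cultures against 6.89, 4.69 and 7.20 in PDAC 1, 2 and 3, with PDAC replicate 2 the lowest of all. Hoxc5 read 5.28 and 5.91 in the normal cultures against 7.25, 5.45 and 7.02 in PDAC 1, 2 and 3. Both again separated PDAC replicates 1 and 3 from the other arrays. Hoxc4, the most anterior gene of the cluster, read 5.46 and 6.27 in the normal cultures against 6.79, 5.14 and 6.22 in PDAC 1, 2 and 3. Here normal ductal replicate 2 reached the level of PDAC replicate 3.

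The 5 genes from Hoxc4 to Hoxc9 form an unbroken run of the cluster's members, on chromosome 15 from 102977032 to 103036856 in the GRCm38 assembly. Posterior to it, Hoxc10 stood at 5.68 in PDAC replicate 3 and at 4.90 to 4.96 on the other 4 arrays, and Hoxc11, Hoxc12 and Hoxc13 showed no higher level in PDAC replicate 1 or 3 than in every other array. At Hoxc10 PDAC replicate 3 lay 0.72 above PDAC replicate 1, which is under 2-fold. PDAC replicate 3 exceeded PDAC replicate 1 by 1.26 log2 units at Hoxc9 and lay 0.58 below it at Hoxc8. Each of these is a difference of single arrays with no replicate check.

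The sequence upstream of Hoxc4 is shown because it is the 1 start of this run that the RefSeq promoter table (GRCm38.p6) holds; it lies within the annotated span of the gene, at chr15:103034145-103034394 on the plus strand. Here and in the sequences of the other clusters, the 250 bases before the annotated start are given 5′ to 3′, with each CG dinucleotide in capitals.
Hoxc4: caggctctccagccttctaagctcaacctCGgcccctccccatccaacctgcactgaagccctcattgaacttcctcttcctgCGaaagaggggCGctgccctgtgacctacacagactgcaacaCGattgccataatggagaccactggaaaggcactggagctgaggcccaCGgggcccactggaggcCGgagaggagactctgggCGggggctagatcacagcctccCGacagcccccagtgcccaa

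Hoxc4 held 8 CG dinucleotides in this window, and the median was 13 over the 23 windows of 21 members in the table and 6 over all 32851 windows.

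Cluster D was low on 4 arrays and showed 2 high genes in PDAC replicate 1. Hoxd13, the last gene of the cluster and a factor of the digits, hindgut and genital tract, read 5.06 and 4.58 in the normal cultures against 7.51, 5.06 and 5.06 in PDAC 1, 2 and 3. Hoxd8, a central gene, read 5.07 and 5.22 in the normal cultures against 7.57, 4.43 and 5.22 in PDAC 1, 2 and 3. For both, PDAC replicate 1 was more than 2 log2 units above each other array. Between them Hoxd9 stood at 5.71 in PDAC replicate 1 and at 4.91 to 4.99 elsewhere, while Hoxd10, Hoxd11 and Hoxd12 did not have their highest value in that culture alone. The high readings of cluster D thus did not form an unbroken run. However, Hoxd11 read 5.69 on every array and Hoxd10 read 4.68 on every array but normal ductal replicate 2. Such probe sets may respond poorly, so whether the genes between were silent in PDAC replicate 1 cannot be told. Hoxd4 stood at 5.42 in PDAC replicate 1 and at 4.74 to 4.94 elsewhere, and Hoxd1 and Hoxd3 varied by 0.02 and 0.04.

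The windows before the starts of both genes are shown because they were the 2 that moved in cluster D. The window of Hoxd8 is chr2:74704365-74704614 and that of Hoxd13 chr2:74667975-74668224, both on the plus strand.
Hoxd8: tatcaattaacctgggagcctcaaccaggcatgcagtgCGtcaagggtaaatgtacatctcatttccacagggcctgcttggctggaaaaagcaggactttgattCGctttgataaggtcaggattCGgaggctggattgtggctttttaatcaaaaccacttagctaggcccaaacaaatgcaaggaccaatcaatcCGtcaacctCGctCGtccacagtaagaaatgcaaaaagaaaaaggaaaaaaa
Hoxd13: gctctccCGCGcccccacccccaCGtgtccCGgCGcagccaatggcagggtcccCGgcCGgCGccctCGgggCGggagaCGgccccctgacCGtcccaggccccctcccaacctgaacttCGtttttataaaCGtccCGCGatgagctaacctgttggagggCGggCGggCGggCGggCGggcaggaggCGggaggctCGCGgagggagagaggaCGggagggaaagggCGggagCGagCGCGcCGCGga

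These windows differed in base composition, with 6 CG dinucleotides and 44.4% G and C at Hoxd8 and 31 and 74.4% at Hoxd13.

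In cluster A the order of the PDAC cultures was another, with replicate 2 the highest. Its members averaged 5.36 and 6.09 in the normal cultures against 5.21, 5.92 and 5.48 in PDAC 1, 2 and 3. Hoxa5, a central gene with roles in lung and gut mesenchyme, had a range of 3.54 log2 units, beside 3.48 for Hoxc8, each with its lowest array below background. It read 5.90 and 8.39 in the normal cultures against 4.85, 7.11 and 6.26 in PDAC 1, 2 and 3, highest in normal ductal replicate 2 and at background in PDAC replicate 1. Hoxa2, an anterior gene of the hindbrain and the second branchial arch, read 4.97 and 6.23 in the normal cultures against 4.58, 6.38 and 4.84 in PDAC 1, 2 and 3. Hoxa3, needed for thymus and parathyroid, read 4.81 and 6.71 in the normal cultures against 4.96, 6.19 and 5.16 in PDAC 1, 2 and 3. For Hoxa2 and Hoxa3 normal ductal replicate 2 and PDAC replicate 2 were high, and the other 3 arrays lay near background. Hoxa4 read 6.76 and 8.14 in the normal cultures against 6.64, 7.06 and 6.76 in PDAC 1, 2 and 3, so that normal ductal replicate 2 alone was more than 1 log2 unit above the rest. Hoxa6 read 5.35 and 5.96 in the normal cultures against 5.49, 6.65 and 5.61 in PDAC 1, 2 and 3. From Hoxa2 to Hoxa6 (chromosome 6, 52162417 to 52213067) the members that were high in PDAC replicate 2 lay side by side, except that Hoxa4 was higher there by only 0.42 than in PDAC replicate 1.

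Posterior to this run the cluster was flat: Hoxa7 varied by 0.44, Hoxa9 by 0.16, Hoxa10 by 0.27, Hoxa11 by 0.08 and Hoxa13 by 0.12. The window before Hoxa5 is shown because this gene was among those that varied most, at chr6:52204588-52204837 on the minus strand, where it held 28 CG dinucleotides.
Hoxa5: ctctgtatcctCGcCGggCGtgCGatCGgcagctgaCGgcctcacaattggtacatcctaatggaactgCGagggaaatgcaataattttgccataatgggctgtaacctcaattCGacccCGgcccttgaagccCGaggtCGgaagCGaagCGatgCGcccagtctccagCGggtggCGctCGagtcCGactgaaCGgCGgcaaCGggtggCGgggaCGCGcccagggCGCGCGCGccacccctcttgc

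Both strands of the member windows were searched for TGATTNAT, a sequence bound by Hox and Pbx proteins together. It was found in 2 of the 23 member windows and in 2.82% of all 32851 windows of the same length, and in none of the 4 windows shown.

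In cluster B 9 of 9 members read above the olfactory receptor background on every array, beside 68.9% to 71.5% of all genes. Hoxb5 did so narrowly in PDAC replicate 1, at 5.21 against 5.18. Hoxb13, at 5.32 to 5.35, lay below the 99th percentile of olfactory receptor genes (5.71 to 5.99) on every array. The cluster averaged 6.20 and 6.88 in the normal cultures against 6.30, 6.59 and 6.47 in PDAC 1, 2 and 3. Hoxb2, an anterior gene, read 6.84 and 8.74 in the normal cultures against 7.68, 7.35 and 7.35 in PDAC 1, 2 and 3. Hoxb5, known from lung and enteric nervous system, read 5.66 and 6.90 in the normal cultures against 5.21, 5.66 and 5.32 in PDAC 1, 2 and 3. Both were highest in normal ductal replicate 2. Hoxb6 read 6.10 and 7.14 in the normal cultures against 6.30, 7.06 and 6.60 in PDAC 1, 2 and 3. The posterior member Hoxb9, of the thoracic region, read 6.82 and 7.37 in the normal cultures against 7.02, 8.23 and 7.80 in PDAC 1, 2 and 3, highest in PDAC replicates 2 and 3. Hoxb7 (range 0.79) and Hoxb4 (0.61) were highest in normal ductal replicate 2, and Hoxb1 (0.36), Hoxb3 (0.31) and Hoxb13 (0.02) varied little. The probe set shared by Hoxb8 and Hoxb7 read 5.92 and 6.64 in the normal cultures against 6.20, 6.99 and 6.83 in PDAC 1, 2 and 3.

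**Figure D2:**
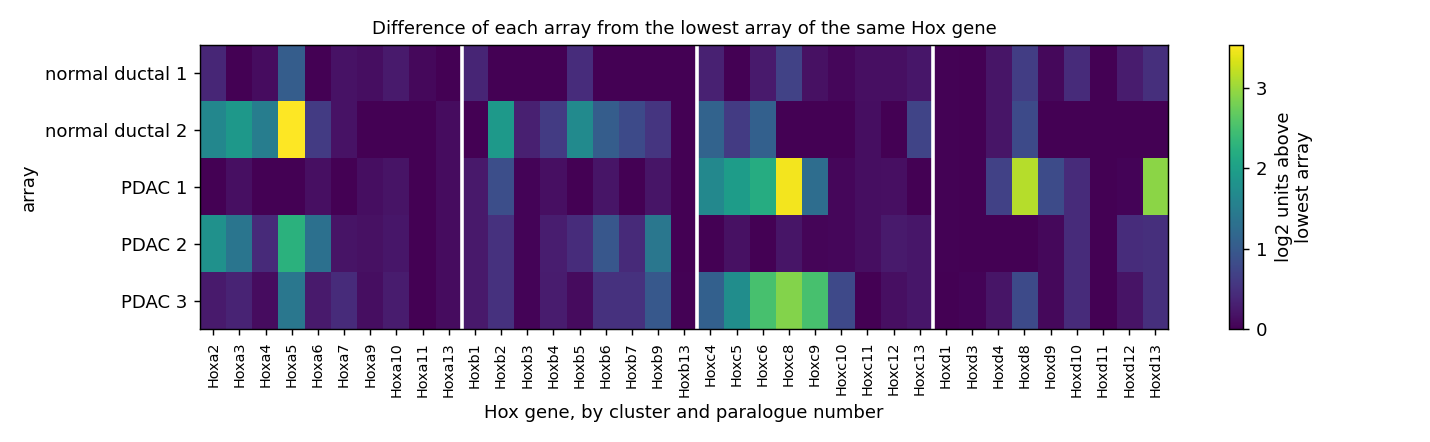
Heat map of the log2 difference of each array (y axis) from the lowest of the 5 arrays for the same Hox gene (x axis, by cluster and paralogue number, white lines between clusters). Fields over 1 log2 unit include Hoxa2 to Hoxa5, Hoxb2 and Hoxb5 in normal ductal 2, Hoxa2, Hoxa3, Hoxa5, Hoxa6 and Hoxb9 in PDAC 2, Hoxc4 to Hoxc9 in PDAC 1 and PDAC 3, and Hoxd8 and Hoxd13 in PDAC 1, while normal ductal 1 has 1 gene over 1 log2 unit.

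Counted in this way, members more than 1 log2 unit above their own lowest array numbered 1 in normal ductal replicate 1 (Hoxa5), 9 in normal ductal replicate 2 and 7, 5 and 6 in PDAC replicates 1, 2 and 3. Over all genes tested the shares were 8.13%, 9.21%, 6.93%, 7.76% and 7.69% in that order, beside 2.70%, 24.3%, 18.9%, 13.5% and 16.2% of the members. Normal ductal replicate 1 was the array whose share of members lay below that of all genes, and its count was 0 with the arrays quantile normalized or set to a common median. By cluster, the 9 of normal ductal replicate 2 were 4 of A, 3 of B and 2 of C, the 7 of PDAC replicate 1 were 5 of C and 2 of D, the 5 of PDAC replicate 2 were 4 of A and 1 of B, and the 6 of PDAC replicate 3 were 1 of A and 5 of C. This count was added after the values were seen, because probe sets differ in the level at which they rest. Counted against the olfactory receptor level instead, 18, 21, 22, 19 and 23 of the 37 members lay above it in the same order of arrays, beside 70.3%, 71.5%, 68.9%, 70.2% and 70.8% of all genes.

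Single arrays were then compared in pairs, which has no replicate check and gives no test. Normal ductal replicate 2 exceeded replicate 1 by more than 1 log2 unit at 7 members, or 18.9%, beside 2.93% of all genes. These were Hoxa2, Hoxa3, Hoxa4, Hoxa5, Hoxb2, Hoxb5 and Hoxb6, by 1.04 for Hoxb6 up to 2.49 for Hoxa5, and 0 were lower, beside 0.978% of all genes. Of the 7, none was posterior and none belonged to cluster C or D. The fibroblast, acinar, islet and endothelial marker levels given above were higher in the same culture, and their part in these differences was not tested.

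PDAC replicate 1 exceeded PDAC replicate 2 at 7 members (18.9%, beside 1.8% of all genes), the 5 Hoxc genes from Hoxc4 to Hoxc9 with Hoxd8 and Hoxd13, by up to 3.28 at Hoxc8. It was lower at 5 (13.5%, beside 1.97%), which were Hoxa2, Hoxa3, Hoxa5, Hoxa6 and Hoxb9. PDAC replicate 3 exceeded PDAC replicate 2 at 5 members (13.5%, beside 3.26%), the same 5 Hoxc genes, and was lower at 3 (8.11%, beside 2.75%), Hoxa2, Hoxa3 and Hoxa6. PDAC replicates 3 and 1 differed at fewer members: Hoxa5 and Hoxc9 were higher in replicate 3 (5.41%, beside 3.46%), and Hoxd8 and Hoxd13 were lower (5.41%, beside 2.58%). PDAC replicate 1 was also set against the mean of the normal ductal arrays, where 6 members were higher (16.2%, beside 3.54%), Hoxc5, Hoxc6, Hoxc8, Hoxc9, Hoxd8 and Hoxd13, and 3 lower (8.11%, beside 5.44%), Hoxa2, Hoxa5 and Hoxb5. Against the same mean, PDAC replicate 2 was higher at Hoxb9 alone (2.70%, beside 3.54%) and lower at 0 (beside 4.95%). PDAC replicate 3 was higher at 4 (10.8%, beside 3.27%), Hoxc5, Hoxc6, Hoxc8 and Hoxc9, and lower at 0 (beside 4.35%). These 3 comparisons share the normal ductal arrays. The fibroblast marker means of the PDAC cultures were 8.92, 8.43 and 8.38, but single markers differed in both directions, since all 15 varied by more than 1 log2 unit over the 5 arrays. Postn, a matrix protein of activated fibroblasts, was at 12.53, 8.59 and 11.31 in PDAC 1, 2 and 3, Dpt at 9.01, 5.62 and 7.62 and Col3a1 at 11.10, 9.60 and 10.79, each lowest in replicate 2. Thy1, at 7.71, 9.59 and 6.29, and Lum, at 3.52, 6.77 and 3.66, were highest there. The mesothelial means were 5.35, 5.74 and 8.66. The part of fibroblast and mesothelial cells in the Hox differences was not tested.

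**Figure D3:**
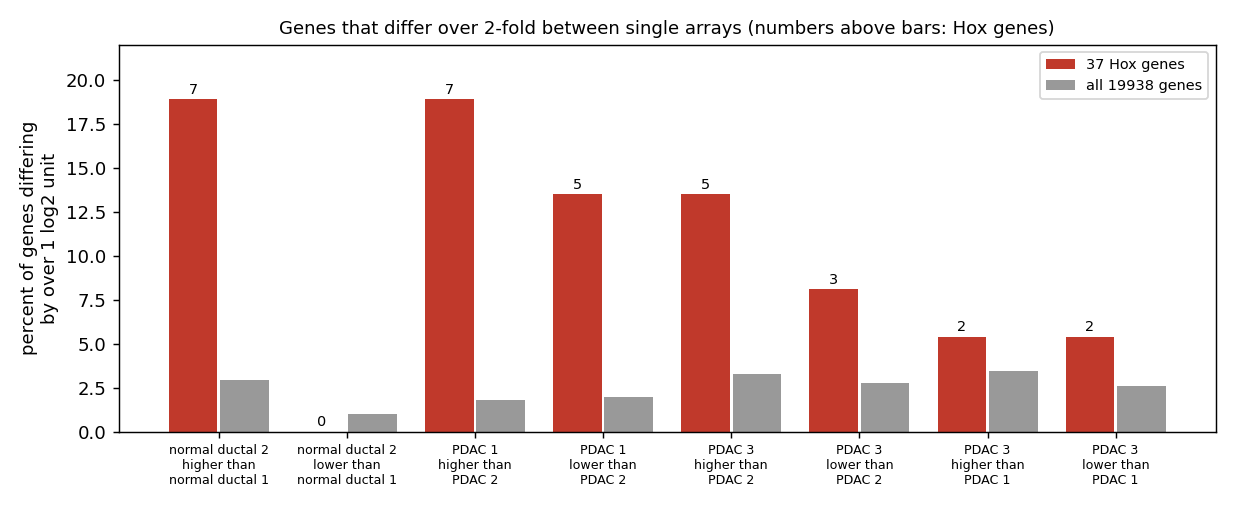
Percent of the 37 Hox genes (red) and of all 19938 genes (grey) that differ by more than 1 log2 unit between single arrays, with the number of Hox genes above each red bar; the x axis names the pair and the direction. The highest bars, 7 genes each, are normal ductal 2 above normal ductal 1 and PDAC 1 above PDAC 2.

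Between the groups no Hox gene passed the test. By limma, 0 of the 37 members had an adjusted p under 0.05, where 0.00502% of all genes were called higher and 0.0502% lower in PDAC, and 0 had an unadjusted p under 0.05, where 6.5% were higher and 6.86% lower. The smallest p was that of Hoxb5, with a log2 fold change of -0.88 (SE 0.43, limma adjusted p = 0.524). The largest log2 fold changes were 1.84 (SE 1.17) for Hoxc8, 1.19 (SE 0.81) for Hoxc9 and 1.06 (SE 0.94) for Hoxd13 on the higher side and -1.07 (SE 1.10) for Hoxa5 on the lower side. The mean of Hoxc8 was 5.05 ± 0.49 (SD, n = 2) for the normal ductal group against 6.89 ± 1.75 (SD, n = 3) for PDAC, with a limma adjusted p = 0.550. The fold changes of Hoxc8, Hoxc9, Hoxd13 and Hoxa5 were each smaller in size than the largest difference between single PDAC cultures at the same gene. The median log2 fold change was 0.06 over the members and 0.01 over all genes.

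For 0 members did every PDAC array lie above both normal ductal arrays, and for 0 did every PDAC array lie below, beside 13.6% and 12.8% of all genes. This count rested partly on equal values, since 21 of the 37 members, and 47.8% of all genes, had the same deposited value on 2 or more arrays. Quantile normalization and a common array median, which separate equal values, gave 7 and 12 members with PDAC above, or 18.9% and 32.4%, beside 24.6% and 37.7% of all genes. Without PDAC replicate 2, 5 members (13.5%) had PDAC above, beside 16.0% of all genes, and 2 (5.41%), Hoxa2 and Hoxb5, had PDAC below, beside 16.5%. In that setting limma gave an unadjusted p under 0.05 for 4 members, Hoxc5, Hoxc6, Hoxc8 and Hoxc9, beside 4.68% of all genes, with 0 called after adjustment. Hoxc8 then differed by 2.83 (SE 0.39, limma adjusted p = 0.363), Hoxc6 by 1.69 (SE 0.38), Hoxc9 by 1.80 (SE 0.54) and Hoxc5 by 1.54 (SE 0.28). The array left out was the PDAC array with the lowest value of each of these 4 genes. Larger differences and smaller SEs follow from its removal and are no separate support. Without normal ductal replicate 1, 10 of the 37 members had PDAC below, beside 19.6% of all genes, among them Hoxa3, Hoxa4, Hoxa5 and Hoxb2 to Hoxb7, and 11 (29.7%) had PDAC above, beside 35.3%. Leaving out normal ductal replicate 2 gave log2 fold changes of 0.12 for Hoxa13 and -0.08 for Hoxa11. Leaving out normal ductal replicate 1 gave 0.24 for Hoxb1 and 0.43 for Hoxd10. The ranges of these 4 genes over all arrays were 0.12, 0.08, 0.36 and 0.43, and each had the same value on 2 or more arrays. With 1 normal ductal array left, the spread came from the PDAC arrays alone, which for these genes agreed to 2 decimals. The lone array was assumed to vary like them, so no calls from these fits are given for Hox genes.

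**Figure D4:**
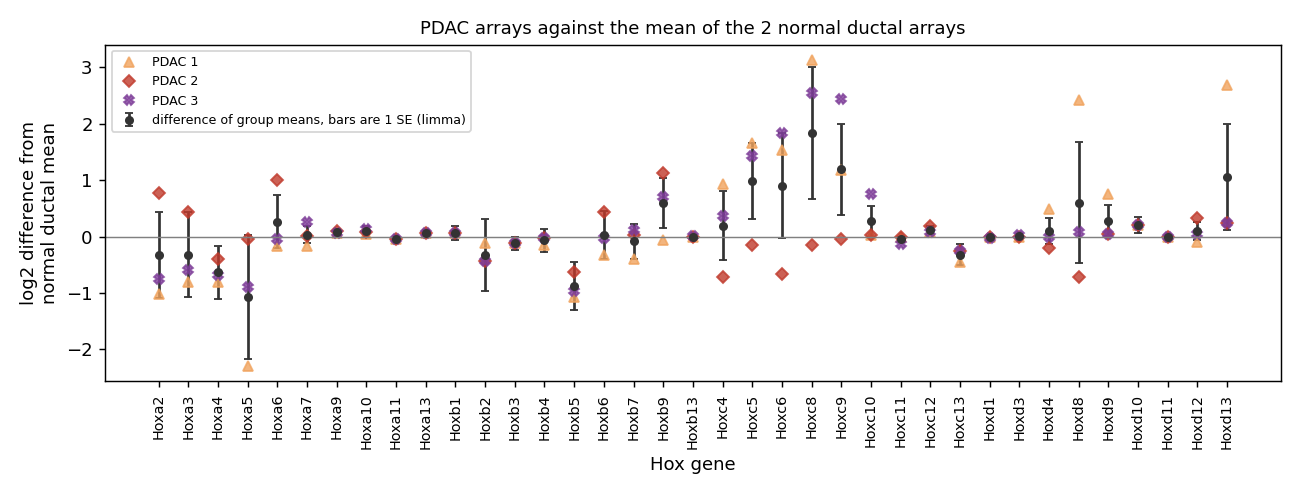
Log2 difference (y axis) between each PDAC array (coloured symbols) and the normal ductal mean for the 37 Hox genes (x axis); black points with bars are the difference of group means with 1 SE from limma. From Hoxc4 to Hoxc9, PDAC 1 and PDAC 3 lie above 0 and PDAC 2 at or below 0, and at Hoxd8 and Hoxd13 PDAC 1 lies apart from the others.

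Genes of other families lie beside the clusters and varied less. Of 19 measured neighbours, 0 varied by more than 1 log2 unit over the arrays, beside 20.7% of all genes. By limma 0 were called after adjustment, and before it 1 was higher and 1 lower at p under 0.05, beside 6.5% and 6.86% of all genes. Evx2, the homeobox gene next to Hoxd13, read 6.01 and 6.01 in the normal cultures against 5.95, 6.01 and 6.01 in PDAC 1, 2 and 3. On the other side of cluster D, Mtx2 was at 9.91, 9.74 and 9.67 in PDAC cultures. Beside cluster C, Smug1, a DNA repair gene, stood at 6.03, 6.03 and 5.92 in PDAC cultures, and Cbx5, which encodes the heterochromatin protein HP1 alpha, at 10.45, 10.36 and 10.46. Neither set PDAC replicates 1 and 3 apart from replicate 2. Cbx5 was the 1 neighbour higher at an unadjusted p under 0.05 (log2 fold change 0.83, SE 0.08, limma adjusted p = 0.140). Beside cluster A, Skap2 read 7.71 and 8.11 in the normal cultures against 7.89, 7.99 and 8.15 in PDAC 1, 2 and 3, and Evx1 varied by 0.16.

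Most noncoding RNAs inside the clusters read below background, the greater part of these being microRNA genes. Of 10 that were measured, 7 of them, Hottip, Haglr, Mir196a-1, Mir196a-2, Mir196b, Mir10a and Mir10b, lay below the olfactory receptor level on all arrays. That level was exceeded by 68.9% to 71.5% of all genes. Of the 10, 0 varied by more than 1 log2 unit, beside 20.7% of all genes. Mir615, which lies within Hoxc5, read 7.20 and 6.73 in the normal cultures and 7.07 in each tumour culture, without the higher values that Hoxc5 had in PDAC 1 and 3. Hoxaas2, a transcript of cluster A, read 5.15 and 5.34 in the normal cultures against 5.23, 5.73 and 5.20 in PDAC 1, 2 and 3, highest in PDAC replicate 2. Whole-transcript probes do not measure mature microRNA well, so that these levels say little about the processed forms. The miR-10 and miR-196 families of the clusters are known to act on Hox transcripts and are shown because they lie among the members; each shares a seed, bases 2 to 8, given in capitals from the RefSeq table (GRCm38.p6).
miR-10a-5p: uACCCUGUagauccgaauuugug
miR-10b-5p: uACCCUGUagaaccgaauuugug
miR-196a-5p: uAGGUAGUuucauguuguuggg
miR-196b-5p: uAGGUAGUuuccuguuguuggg

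Of the TALE partners 8 were measured, and 8 of 8 lay above background in every culture except normal ductal replicate 1, where Pknox2 did not. That level was passed by 68.9% to 71.5% of all genes. Meis1, Meis2 and Pbx3, which bind DNA with Hox proteins, ranged from 8.83 to 9.95 over all arrays. Pknox2 read 4.90 and 7.16 in the normal cultures against 7.31, 6.21 and 7.31 in PDAC 1, 2 and 3, the 1 partner that varied by more than 1 log2 unit and lowest in normal ductal replicate 1. By limma 0 were called after adjustment, and at an unadjusted p under 0.05 Pbx2 was higher (0.62, SE 0.13, adjusted p = 0.225) and Meis3 lower (-0.51, SE 0.16, adjusted p = 0.328). Over all genes 6.5% were higher and 6.86% lower at that limit. The 6 ParaHox genes, sisters of the Hox genes, varied by at most 0.88. Pdx1, the ParaHox gene whose promoter drives the Cre transgene, read 6.13 and 6.13 in the normal cultures against 5.75, 6.09 and 6.63 in PDAC 1, 2 and 3.

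Of 17 genes of retinoic acid supply and response, 8 varied by more than 1 log2 unit, beside 20.7% of all genes. By limma 0 were called after adjustment, and 2 were higher at an unadjusted p under 0.05, beside 6.5% of all genes. Aldh1a2, a retinaldehyde dehydrogenase that makes retinoic acid in mesenchyme and mesothelium, read 7.51 and 10.42 in the normal cultures against 7.36, 5.36 and 7.0 in PDAC 1, 2 and 3, highest in normal ductal replicate 2 and lowest in PDAC replicate 2. Aldh1a1 had the widest range of the list (5.26), with 9.02 and 8.78 in the normal cultures against 4.93, 6.42 and 10.18. Rdh10 read 12.05 and 11.9 against 9.47, 9.56 and 12.17. Both were lowest in PDAC replicates 1 and 2, while Aldh1a3 varied by 0.53. Stra6, the receptor that takes up retinol, stood at 11.19 in PDAC replicate 3 and at 7.10 to 7.52 elsewhere. The receptor gene Rarb, itself a target of retinoic acid, stood at 9.19 in PDAC replicate 3 and at 6.54 to 7.53 elsewhere. Crabp2, a carrier of retinoic acid to the nucleus, stood at 8.93 in PDAC replicate 2 and at 5.80 to 7.03 elsewhere. Stra6 and Rarb thus stood out in PDAC replicate 3 and Crabp2 in PDAC replicate 2. Dhrs3, which turns retinaldehyde back to retinol, read 6.81 and 8.43 in the normal cultures against 9.99, 7.88 and 10.21 in PDAC 1, 2 and 3, highest in PDAC replicates 1 and 3. The part of retinoic acid in the Hox differences was not tested. Rarg was higher in PDAC at an unadjusted p under 0.05 (1.40, SE 0.29, limma adjusted p = 0.218).

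Chromatin regulators act on the clusters as well. Of 21 Polycomb genes, 3 varied by more than 1 log2 unit, beside 20.7% of all genes. Before adjustment limma put 3 higher and 1 lower at p under 0.05, beside 6.5% and 6.86% of all genes, with 0 called after it. Bmi1, a subunit of Polycomb complex PRC1 that silences Hox genes, read 7.97 and 7.89 in the normal cultures against 9.19, 8.97 and 8.70 in PDAC 1, 2 and 3 (1.02, SE 0.17, adjusted p = 0.192). Phf19, an accessory subunit of PRC2, read 6.13 and 5.97 in the normal cultures against 6.89, 7.28 and 7.26 in PDAC 1, 2 and 3 (1.09, SE 0.16, adjusted p = 0.170). Both lay higher in PDAC without overlap of the groups, as did 13.6% of all genes, and did not set PDAC replicate 2 apart from replicates 1 and 3. The methyltransferase Ezh2 varied by 0.37. Of 14 trithorax and MLL genes, which keep Hox genes active, limma put 3 higher and 2 lower before adjustment, at p under 0.05, and called 0 after it. The shares of all genes were again 6.5% and 6.86%. The 2 lower genes were Dot1l and Kdm6a. Kmt2a, the methyltransferase MLL1, was not among them (-0.85, SE 0.35, limma adjusted p = 0.43). It read 9.72 and 9.35 in the normal cultures against 9.0, 8.93 and 8.12 in PDAC 1, 2 and 3.

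Other transcription factors of regional identity also differed between cultures, with 13 of 23 measured genes varying by more than 1 log2 unit, beside 20.7% of all genes. Osr1, a factor of lateral plate and intermediate mesoderm, read 6.92 and 9.18 in the normal cultures against 11.75, 12.63 and 10.65 in PDAC 1, 2 and 3 (log2 fold change 3.63, SE 0.98, limma adjusted p = 0.294), and its relative Osr2 5.77 and 5.66 in the normal cultures against 7.03, 6.85 and 8.08 in PDAC 1, 2 and 3 (1.61, SE 0.44, adjusted p = 0.295). For both, the lowest PDAC array lay above the highest normal one, as for 13.6% of all genes. With Hlx these were the 3 genes of the list at an unadjusted p under 0.05, all higher, beside 6.5% of all genes, and limma called 0 after adjustment. Tbx3, a T-box factor, read 6.28 and 7.79 in the normal cultures against 6.64, 8.44 and 7.79 in PDAC 1, 2 and 3, lowest in normal ductal replicate 1 and PDAC replicate 1. Tcf21, a factor of visceral mesenchyme, stood at 6.39 in normal ductal replicate 2 and at 4.88 to 4.93 elsewhere. Gata6, a factor of foregut endoderm, stood at 7.65 in PDAC replicate 1 and at 9.34 to 9.54 elsewhere. The limb factors Tbx4 and Tbx5 lay below the olfactory receptor level on all arrays, and Pitx1 varied by 0.40.

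**Figure D5:**
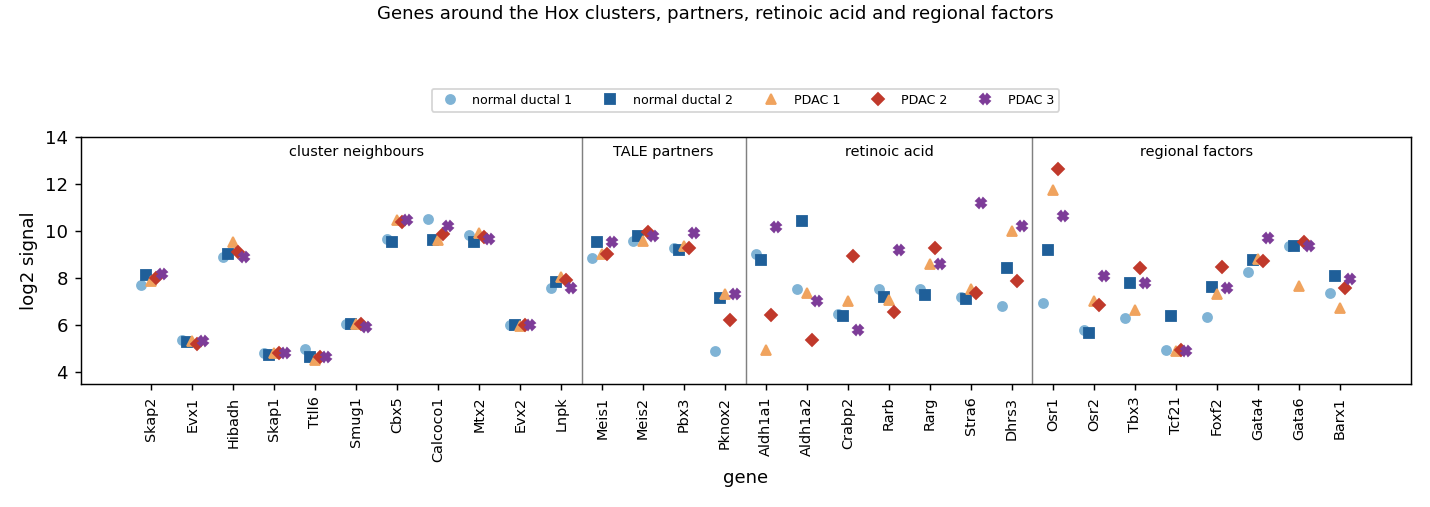
Log2 signal (y axis) on each of the 5 arrays for genes beside the Hox clusters, TALE partners, retinoic acid genes and regional factors (x axis), a choice from the lists made after their values were seen. The neighbours stay within 1 log2 unit, while Osr1 runs from 6.92 to 12.63 and Stra6 reaches 11.19 in PDAC 3 alone.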

How the data were processed

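The authors deposited log2 signals of 35556 probe sets on 5 arrays, ranging from 0.727 to 13.9 with array medians between 5.90 and 6.02. Transcriptome Analysis Console 1.0.0.234 and mm10 are named, per the submitters' processing notes. How background, normalization and probe summary were handled, and the log base, is not given in the sources used here; log2 was read from the range. Names came from the platform's annotation, and 21698 of the 21789 with 1 symbol matched a gene of the GRCm38.p6 reference by Entrez identifier. The members and lists were chosen with earlier results of these data known. All members may be named, and other genes come from the fixed lists or the markers.

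Each of 19938 genes was fitted with limma 3.58.1 in R 4.3.3 (intensity trend, two-sided, 3 residual and 0.91 prior degrees of freedom, Benjamini-Hochberg over all genes). On simulated data for this comparison with 200 of 19938 genes changed, 39.0%, 71.0% and 91.3% of genes changed by a log2 of 1, 2 and 4 were called, and 5.68% of calls were false. The changed genes were drawn at random from all genes. These shares therefore do not give the recovery for Hox genes of wide spread, such as Hoxc8 (SE 1.17) and Hoxa5 (SE 1.10). Summaries used Python 3.11.15. Alternatives were other scalings, probe set means, a filter on low genes, other variance models, a replicate block, each culture left out and other background levels. The number of arrays limited the precision.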

Additional observations from a re-analysis of the deposited data

How the results depend on the processing

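The differences between single arrays kept their counts under both scalings, and at a 1.5-fold limit normal ductal replicate 2 was above replicate 1 at 13 members and below it at 1, while those higher in PDAC replicate 3 than in replicate 1 numbered 4. Counts above background depended on the level chosen: at the 99th percentile of olfactory receptor genes they were 8 in normal ductal replicate 1 and 12 and 14 in PDAC replicates 2 and 3, and at the 95th percentile of vomeronasal receptor genes 36 in PDAC replicate 1 and 37 in the other arrays. The mean of posterior genes in normal ductal replicate 1 was 4.98 after quantile normalization, and with a common array median it was 5.01 there, 4.93 in normal ductal replicate 2 and 5.40 in PDAC replicate 1, and the other 101 of 105 alternative means by cluster or position moved by less than 1 SD. Over all genes limma called 10 higher and 32 lower after quantile normalization, 23 and 57 with a common median, 0 and 0 with the replicate block, and 3 higher without the lowest 25% of genes; leaving out 1 culture gave 0 to 980 higher and 0 to 865 lower. All genes together had a median change of 0.04 after quantile normalization and 0.10 with a common median. Among the Hox genes every alternative that kept both normal ductal arrays gave 0 called. Leaving out 1 culture gave 0 to 11 members with PDAC above and 0 to 10 with PDAC below, beside 16.0% to 35.3% and 15.3% to 31.7% of all genes. Members with PDAC above numbered 7 after quantile normalization and 12 with a common median. The replicate numbers are shared by 2 pairs only, whose deviations correlated at -0.18 and -0.04 over genes, and with the replicate block 0 members were called. With 1 culture left out, the log2 fold change ran from -0.96 to 0.30 for Hoxa2, -1.27 to 0.62 for Hoxa3, -1.32 to 0.06 for Hoxa4, -2.32 to 0.17 for Hoxa5, -0.11 to 0.57 for Hoxa6, -1.29 to 0.62 for Hoxb2, -0.49 to 0.55 for Hoxb6, -0.22 to 0.64 for Hoxc4 and -0.32 to 1.25 for Hoxd8, and the cause of these changes of sign was not tested. A low signal cannot tell a silent gene from a weak probe set.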
